A study of Mus musculus with 35 samples.

Results

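The 40 interferon response genes described here were taken by name from the gene tables of sorted mouse epithelial cells, and all 40 are listed both among the 53715 names of the back skin tables and among the 49585 names of the tail, palate and tongue tables. RNA was measured in 35 libraries of 13 groups. All groups come from C57BL/6J mice aged 2 months that carry K5-tTA and pTRE H2B-GFP, and all received doxycycline. Skin was taken after 2 weeks of the drug, palate and tongue after 10 days. There is thus no group without the transgenes or without the drug. In this system the keratin 5 promoter drives a histone-GFP fusion in epithelial cells, doxycycline stops its synthesis, and each division then dilutes the label. Cells that kept the label (LRC, label-retaining, slow-cycling) and cells without it (nLRC, fast-cycling) were taken as basal cells of back and tail skin and as spinous cells of the back, with 3 libraries per group, and as basal cells of palate and tongue, with 2 libraries per group. Back skin granular layer, back bulge and tail bulge, the bulge being the stem cell niche of the hair follicle, gave 3 libraries each. The labels do not name the antibodies of the sort, and no label says which libraries come from separate animals, so every p-value below measures only the spread between these libraries.

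Library totals ranged from 9785944 to 20560481 reads in back skin, from 8421582 to 14093720 in tail skin, from 11680595 to 15641556 in palate and from 11847897 to 13034075 in tongue. All 8 keratinocyte markers examined, among them Krt5 and Krt14, stood at 1 TPM (a level per transcript length, scaled to the library) or more in every library. The granular and bulge sorts also carried their markers: all 7 suprabasal markers rose in back granular cells, and 6 of 7 bulge markers in back bulge and 7 of 7 in tail bulge rose over basal cells. The spinous sorts were uneven. Suprabasal markers summed to 24018 to 40628 TPM in spinous LRC but 4298 to 9943 in spinous nLRC, which overlapped basal LRC, at 5900 to 7224. Back bulge library 2 and tail bulge library 3 were the shallowest of their tissues, and the 18 back skin tables were made with another gene list than the 17 others, so no test crosses these sets and levels set across them are descriptions only. In sorted bulk RNA, fewer cells of a type and less RNA per cell cannot be told apart.

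Interferons are secreted alarm proteins. Type I interferons bind the receptor Ifnar1/Ifnar2, type II interferon binds Ifngr1/Ifngr2 and type III interferons, prominent at epithelial surfaces, bind Ifnlr1/Il10rb. Receptor-bound Jak kinases phosphorylate Stat proteins. A complex that holds Stat2 and Irf9 binds the interferon-stimulated response element (ISRE), the gamma-activated site (GAS) is the element of the type II response, and Irf1 and Irf7 bind elements like the ISRE. The genes switched on include sensors of foreign RNA and DNA, enzymes that block viral translation and replication, GTPases that attack vacuoles holding pathogens, and feedback inhibitors. In keratinocytes some of this program is expressed without infection. The 40 members hold the regulators Stat2, Irf1, Irf7 and Irf9, the sensors and RNA-activated enzymes Ifih1, Ddx58, Zbp1, Eif2ak2, Oas1a, Oas2, Oas3, Oasl1 and Oasl2, the antiviral effectors Ifit1, Ifit2, Ifit3, Mx1, Mx2, Rsad2, Cmpk2, Bst2, Rtp4, Samd9l, Xaf1, Ifi44 and Ifi35, the Isg15 system (the ubiquitin-like Isg15, its ligases Herc6 and Trim25 and its protease Usp18), the GTPases Gbp2, Gbp3, Gbp5, Gbp6, Gbp7, Igtp and Irgm1, and the ADP-ribosylation partners Parp9, Parp14 and Dtx3l.

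Some of the members share promoter motifs. RefSeq promoters of assembly GRCm38.p6 were matched for 31 of the 40 members. Gbp6, Mx1, Mx2, Oas2, Parp14, Parp9, Rtp4, Usp18 and Zbp1 had no entry. In the 250 bases before the start site, an ISRE-like motif, GAAANNGAAA on either strand, was present in 14 of the 31, against 3.46% of 27025 genes (2.98% of 32851 promoters). The GAS motif TTCNNNGAA, which reads the same on both strands, was present in 8 of 31, against 8.13% of genes (7.02% of promoters). The motifs shared bases in Bst2. As a check of the start sites, the bases after the start opened a transcript in 24 of the 31. They did not in Herc6 and Oasl2, nor in Bst2, Gbp7, Ifit3, Oas1a and Stat2, which carry the ISRE-like motif. The start sites of these genes were thus not borne out by that check. A match is a description of letters, not a bound site. Windows of 60 bases from 6 members, each upstream of an annotated start, are shown 5′ to 3′ on the gene's strand because these members carry the motif near the start and recur below, with ISRE-like matches in capitals (TTTC marks the motif on the other strand).
Isg15, chr4:156200856-156200915, minus strand: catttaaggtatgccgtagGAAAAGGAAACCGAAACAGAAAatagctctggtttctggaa
Rsad2, chr12:26456538-26456597, minus strand: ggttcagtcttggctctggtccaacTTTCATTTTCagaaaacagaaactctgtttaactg
Ifit1, chr19:34640769-34640828, plus strand: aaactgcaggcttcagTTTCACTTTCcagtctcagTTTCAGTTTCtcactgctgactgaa
Oas1a, chr5:120907526-120907585, minus strand: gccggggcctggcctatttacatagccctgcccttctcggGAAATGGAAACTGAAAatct
Gbp3, chr3:142559966-142560025, plus strand: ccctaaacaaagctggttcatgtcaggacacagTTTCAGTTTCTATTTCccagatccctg
Igtp, chr11:58199496-58199555, plus strand: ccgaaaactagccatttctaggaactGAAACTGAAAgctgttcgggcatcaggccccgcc
In Isg15 3 matches overlapped, and in Oas1a and in Gbp3 2 overlapped. Ifit1 held 2 separate matches. The other members with the ISRE-like motif were Bst2, Gbp2, Gbp5, Gbp7, Ifit3, Irgm1, Oas3 and Stat2.

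The members with the highest median TPM over the 35 libraries were Trim25, Irf1, Irf9, Gbp2 and Dtx3l, and the summed TPM of the 40 was higher in every back skin library than in any other. The sum ran from 163 to 1156 TPM in back skin, with a median of 543 over 18 libraries, from 68.0 to 97.6 in palate, from 66.4 to 121.7 in tongue and from 31.2 to 76.7 in tail skin. The lowest back skin library, bulge 2, thus stood above the highest library of any other tissue. Higher TPM in most back skin libraries was not particular to the members. The 9 receptor and kinase genes summed to 59.8 to 607 TPM in back skin and 67.1 to 129.5 elsewhere. The 16 nucleic acid sensing genes summed to 79.6 to 349.7 and 43.5 to 99.8. The 7 genes listed as feedback, the exonuclease gene Isg20 among them, summed to 75.6 to 344.3 and 42.2 to 85.6. Between 24 and 36 members reached 1 TPM in a back skin library, against 9 to 17 in tail, 16 or 17 in palate and 16 to 21 in tongue.

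**Figure D1:**
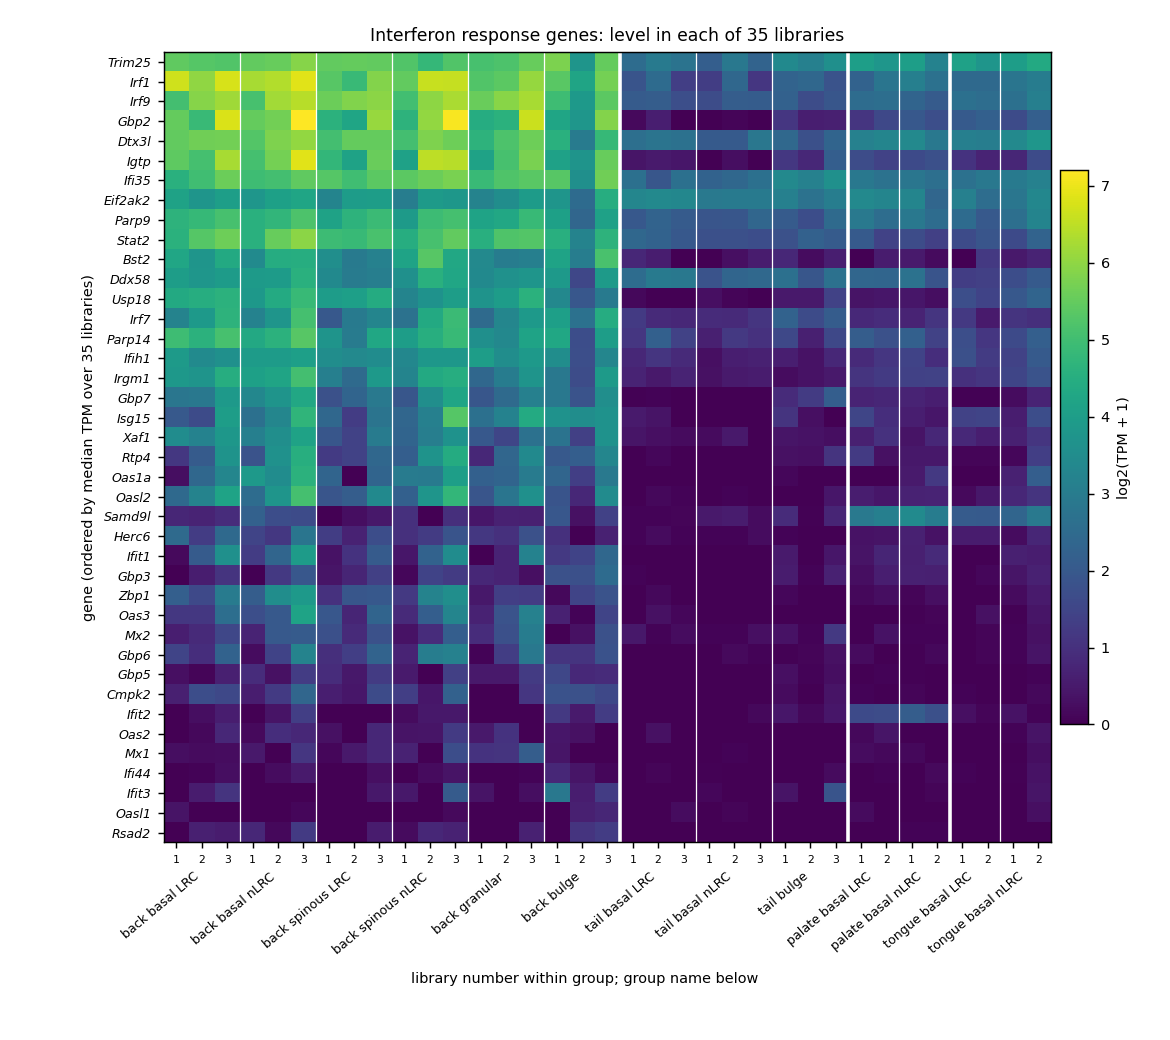
Level of each of the 40 members (rows, ordered by median TPM) in each of the 35 libraries (columns, by group and library number), as log2(TPM + 1). The 18 back skin libraries on the left are brighter for most members, whereas Samd9l and Ifit2 are brightest in palate.

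The regulators showed this contrast in each library. Irf1, the interferon-gamma-induced activator, ranged from 17.6 to 116.64 TPM in back skin with a median of 60.7, from 1.21 to 4.69 in tail, from 3.80 to 7.63 in palate and from 4.47 to 7.18 in tongue. Irf9, the DNA-binding part of the complex with Stat2, ranged from 13.5 to 85.2 TPM in back skin and from 2.21 to 7.60 TPM over the other tissues. Stat2 ranged from 8.40 to 60.9 TPM in back skin, from 2.24 to 4.28 in tail, from 1.58 to 3.09 in palate and from 2.10 to 3.94 in tongue. For all 3, every back skin library lay above every other library.
Irf7, which amplifies type I interferon production, ranged from 2.98 to 32.7 TPM in back skin and from 0.44 to 3.83 elsewhere, and its ranges touched: tail bulge, at 3.83, 2.11 and 3.26 TPM, overlapped the lowest back skin library. Gbp2, a guanylate-binding GTPase, ranged from 12.8 to 146.64 TPM in back skin, and from 0.00 to 1.2 in tail, 1.15 to 2.97 in palate and 2.16 to 3.65 in tongue. Trim25, the ubiquitin ligase that acts on the RNA sensor Ddx58, was less uneven, at 12.5 to 58.2 TPM in back skin, 3.41 to 10.98 in tail, 8.21 to 15.6 in palate and 12.4 to 19.6 in tongue, with overlap through back bulge 2. Dtx3l, the ubiquitin ligase partner of Parp9, also overlapped only through that library, whose 7.0 TPM stood against 23.0 to 64.6 in the other back skin libraries and 2.37 to 12.7 elsewhere.

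Samd9l and Ifit2 were exceptions, with their highest levels in palate. Samd9l, which restrains translation during infection, stood at 6.48 and 7.62 TPM in palate LRC, 9.87 and 7.22 in palate nLRC, 3.17 and 3.08 in tongue LRC, and 4.07 and 6.59 in tongue nLRC. No back skin library exceeded 3.72 TPM and no tail library 0.86. Ifit2, which binds RNA and blocks translation, stood at 2.06 and 2.22 TPM in palate LRC and 3.40 and 2.40 in palate nLRC, and reached at most 1.52 in back skin, 0.36 in tail and 0.28 in tongue. Every palate library thus lay above every library of the other tissues for both genes, except that for Samd9l one tongue nLRC library, at 6.59 TPM, overlapped them.

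**Figure D2:**
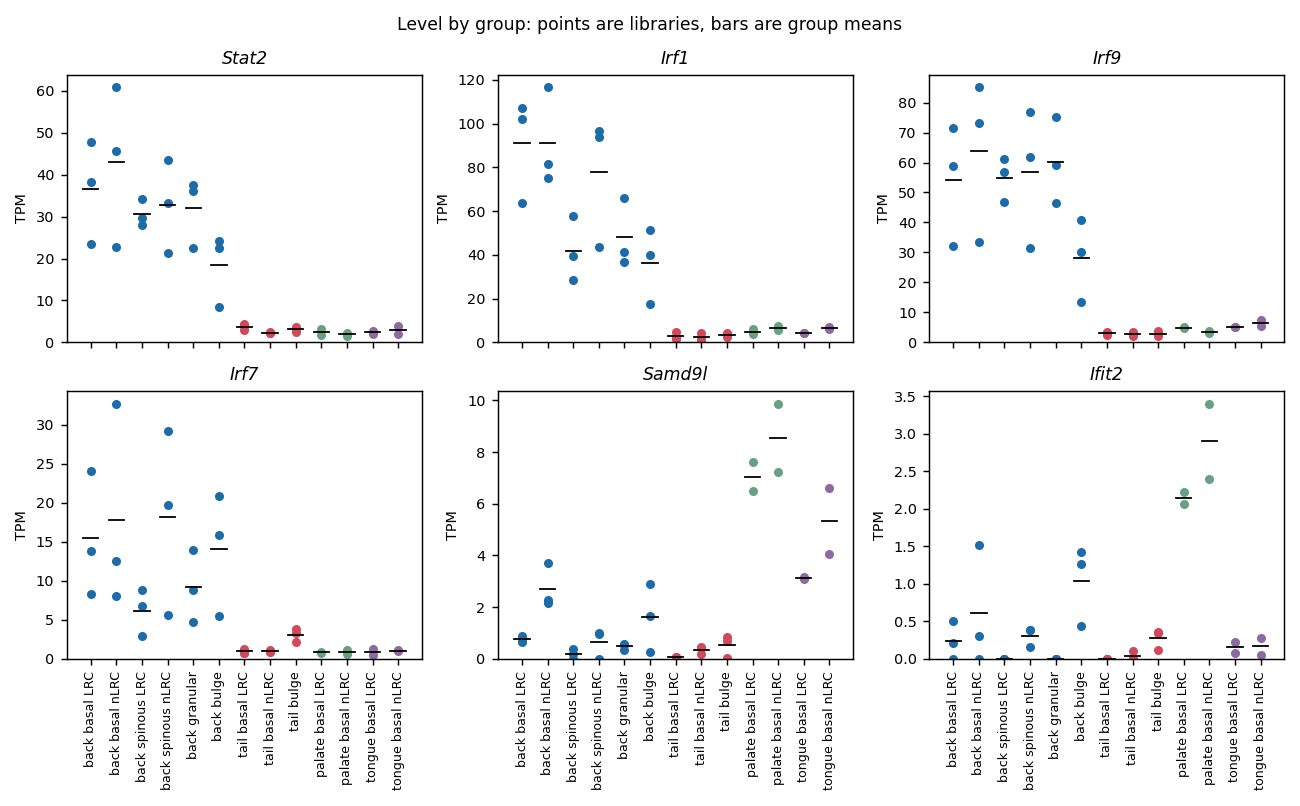
TPM of the regulators Stat2, Irf1, Irf9 and Irf7 and of Samd9l and Ifit2 in the 13 groups. Points are libraries and bars group means. The regulators are highest in back skin, and Samd9l and Ifit2 in palate.

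To set back skin beside the other tissues on counts, CPM (reads scaled to library size) were scaled over the 47436 names that both table sets list. Among basal cells, 35 members could be compared, and for 16 all 6 back skin libraries lay above all 14 tail, palate and tongue libraries. Of 17103 genes, 10.7% did so. None of the 35 had all back skin libraries below. The median log2 difference of the members, relative to that of all genes, was 1.66. Gbp2 led, at 13.1 to 78.0 CPM in back skin against 0.00 to 7.01 elsewhere, followed by Igtp, an immunity-related GTPase, at 12.3 to 48.3 against 0.00 to 5.33. Eif2ak2, the RNA-activated kinase that stops translation, was near equal, at 21.7 to 31.0 CPM against 23.9 to 36.2, although its median TPM was 13.6 in back skin and 6.98 to 8.71 in the other tissues. Among bulge cells 19 of 29 members had all 3 back libraries above all 3 tail libraries, against 14.9% of 14007 genes, with a relative median of 1.43. These are differences between separately made tables, and how they were made cannot be told apart from the tissue. A filter on low counts ran over back skin and the other libraries together. Members near 0 reads outside back skin passed it only through back skin and could only lie above. Bst2, at 0 to 8 reads in each other basal library, is one. In tail bulge Oas1a, Isg15, Bst2 and Cmpk2, all among the 19, had 0 to 5 reads per library. Both counts, the lack of members below and the relative medians are thus descriptions.

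Very low members need their reads named. Isg15, Rsad2, Ifit1, Oas1a, Gbp3 and Zbp1 had 0 reads in all 3 tail nLRC libraries. In tongue LRC, Gbp5, Ifit3, Mx1, Oas1a, Oasl1, Rsad2 and Zbp1 had 0 reads in both libraries. Elsewhere Ifit3 was at 0 reads in back basal nLRC, Ifit2 and Oasl1 in back granular, Oasl1 in back spinous LRC, palate nLRC and tail bulge, Oas2 in palate nLRC and Rsad2 in palate LRC. A count of 0 allows up to 3 reads per library. Mx1, whose product blocks influenza virus, is a defective allele in C57BL/6 mice.

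Oral and tail basal cells come from tables that share a gene list and were tested against each other, although how their reads were counted is not stated. Interferon response genes were higher in oral basal cells: of 28 members tested, 20 rose and 1 fell, with a median log2 fold change of 1.65 against -0.04 over all genes (edgeR quasi-likelihood test, Benjamini-Hochberg adjusted over 16614 genes). Over all genes 15.1% rose and 16.5% fell. For 11 of the 28 (Samd9l, Trim25, Usp18, Ifih1, Irgm1, Dtx3l, Parp9, Gbp2, Irf9, Igtp and Xaf1), all 8 oral libraries lay above all 6 tail libraries in CPM. The filter on low counts let 9 members in only through this wider fit (Gbp2, Igtp, Ifit2, Oasl2, Ifit1, Gbp3, Rtp4, Oas3 and Oas1a), and these had to be higher on one side. Of the other 19, 14 rose and 1 fell, with a median of 1.17. Among these 14, Gbp7 had 0 to 3 reads and Usp18 4 to 8 in each tail basal library. Both thus passed the filter here only through oral libraries, and for them too the test could give only a rise. The 12 members not tested (Ifit3, Oas2, Oasl1, Mx1, Isg15, Rsad2, Gbp5, Gbp6, Bst2, Cmpk2, Ifi44 and Zbp1) had too few reads. Tissue and time on doxycycline cannot be told apart here.

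Samd9l had the smallest p. Its TMM-scaled CPM were 18.4 and 26.7 in palate LRC, 26.1 and 37.1 in palate nLRC, 7.68 and 9.97 in tongue LRC, and 11.2 and 16.0 in tongue nLRC. In tail LRC they were 0.130, 0.862 and 0.234, and in tail nLRC 1.54, 1.37 and 0.503. All oral libraries were above all tail libraries, and the log2 fold change was 4.64 ± 0.33 (SE, adjusted p = 2.59e-07). Gbp2 showed a like separation from a lower level. It stood at 1.27 and 3.09 CPM in palate LRC, 3.49 and 5.91 in palate nLRC, 3.22 and 5.28 in tongue LRC and 2.78 and 3.92 in tongue nLRC, against 0.130, 0.575 and 0.00 in tail LRC and 0.00, 0.195 and 0.00 in tail nLRC. It rose by 4.72 ± 0.67 (adjusted p = 0.000142).

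In the Isg15 system the ligase genes Trim25 and Herc6 and the protease gene Usp18 rose. Trim25 stood at 42.6 to 52.0 CPM in the 8 oral libraries and 10.1 to 18.5 in the 6 tail libraries, a tight and separate pair of ranges, with a log2 fold change of 1.79 ± 0.13 (adjusted p = 3.90e-07). Usp18, which cleaves Isg15 from proteins and also damps signalling at Ifnar2, stood at 1.54 to 10.8 CPM in oral and 0.313 to 0.725 in tail libraries, and rose by 3.22 ± 0.26 (adjusted p = 8.47e-07). The filter kept Usp18 through oral libraries alone, so its test could give only a rise. In TPM its palate libraries, at 0.20 to 0.35, overlapped tail basal libraries, at 0.00 to 0.22, whereas tongue stood at 1.75 to 3.96. Herc6, an Isg15 ligase in mice, stood at 1.69 to 3.69 against 0.453 to 1.87 CPM, with overlap, and rose by 1.70 ± 0.38 (adjusted p = 0.00429). Isg15 itself was not tested: it had 2 to 10 reads in each oral library and 0 to 2 in each tail basal library.

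Sensors moved in both directions. Ifih1, the sensor of long double-stranded RNA, stood at 7.33 to 13.9 CPM in oral and 1.54 to 4.96 in tail libraries and rose by 1.61 ± 0.18 (adjusted p = 1.85e-05). Ddx58, the sensor of RNA with a 5′ triphosphate, was the member that fell, by 0.44 ± 0.13 on the log2 scale (adjusted p = 0.0183). Its palate libraries, at 15.2, 19.9, 20.8 and 18.6 CPM, lay within or just above the tail range of 12.5 to 20.5, and its tongue libraries, at 5.12, 7.79, 8.95 and 10.5, lay below it. Leaving out palate LRC 1, tongue LRC 1 or tongue nLRC 1 ended that call, with adjusted p up to 0.0620 over the 14 libraries left out in turn.

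The GTPase Irgm1 stood at 2.85 to 10.5 CPM in oral and 0.906 to 1.496 in tail libraries, and rose by 2.07 ± 0.24 (adjusted p = 2.62e-05). Dtx3l, at 18.8 to 34.2 against 8.69 to 14.5 CPM, rose by 1.16 ± 0.14 (adjusted p = 3.67e-05), and Parp9, at 11.7 to 23.8 against 6.89 to 10.6, rose by 0.98 ± 0.13 (adjusted p = 1.00e-04). Both pairs of ranges were separate. These partner genes overlap each other on opposite strands, and no source used here states whether counting used strand, so reads in the overlap cannot be assigned.
Of the regulators, Irf1 rose by 1.32 ± 0.29 and Irf9 by 1.03 ± 0.16, whereas Stat2 (-0.10 ± 0.18) and Irf7 (0.14 ± 0.38) did not pass. Stat2 stood at 5.26 to 9.15 CPM in oral and 5.95 to 9.75 in tail libraries. The other members that rose were Igtp (3.22), Ifit2 (3.16), Parp14 (1.10), Gbp7 (3.21), Xaf1 (1.88), Oasl2 (3.30), Ifit1 (4.59), Ifi35 (0.61) and Gbp3 (3.37, log2 fold changes). Ifit1 rested on 67 oral and 2 tail reads, a ratio of 23.9 (95% counting interval 6.37 to 201.7), and lost its call in 1 of 14 fits with a library left out. Ifi35 kept its call in 6 and Gbp3 in 5 of the 14, with adjusted p up to 0.0838 and 0.0808. Rtp4, Oas3, Mx2, Eif2ak2 and Oas1a also did not pass, and Oas1a had 96 oral and 6 tail reads.

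**Figure D3:**
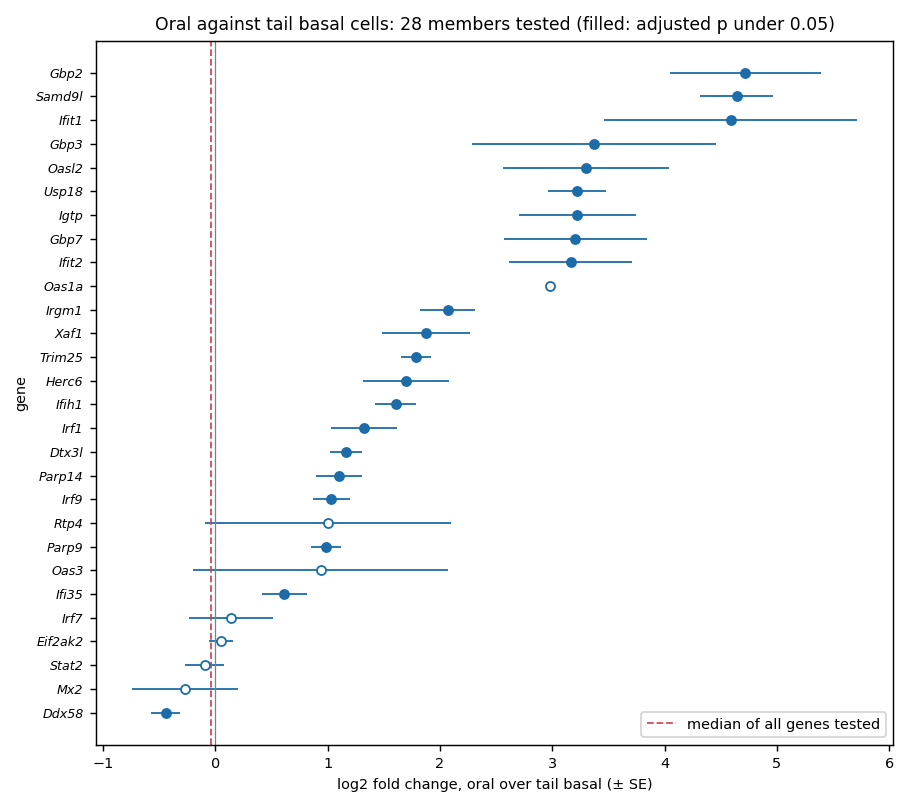
Log2 fold change of oral over tail basal cells (x axis, bars are SE) for the 28 members tested, filled where the adjusted p was under 0.05. The 20 that rose lie to the right, Ddx58 alone is filled on the left, and the dashed line is the median of all genes, -0.04. Oas1a has no bar because its SE could not be estimated with groups at 0 reads.

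Genes around the members gave a mixed picture in the same comparison. Of the 9 receptor and kinase genes, 3 rose and 2 fell, among them Il10rb, the shared chain of the type III receptor, which rose by 1.35 ± 0.12, Ifnar2, which rose by 0.63 ± 0.11, and Jak1, which fell by 0.50 ± 0.09. Of 12 nucleic acid sensing genes tested, 3 rose and 2 fell. Trex1, the DNase that clears cytosolic DNA, fell by 1.65 ± 0.36. Of 7 genes listed as feedback, 3 rose. Socs3 rose by 0.75 ± 0.26 and Ptpn11 by 0.27 ± 0.08. Isg20, an interferon-induced exonuclease and not a feedback inhibitor, rose by 2.30 ± 0.36. Among 37 other interferon-induced genes tested, 19 rose and 2 fell, with a median of 0.52, led by Phf11d at 4.50 ± 0.24 and Helz2 at 2.90 ± 0.20. Of the 21 interferon ligand genes, 1 was tested and did not pass: no library of any tissue held more than 4.72 TPM of any of them, the highest being Ifnz and Ifnk (4.06), the interferon made by keratinocytes. Immune cell markers summed to 0.5 to 4.3 TPM in tail basal libraries and 2.2 to 37.4 in oral libraries, and 1 of 7 tested, H2-Ab1, rose, by 3.74 ± 0.68. Markers of other cell types moved as well. Of 7 suprabasal markers 1 rose and 4 fell. Krt1 fell by 10.41 and Krt10 fell by 6.54 on the log2 scale. Of 12 sebaceous markers 2 rose and 6 fell, and of 7 bulge markers 1 rose and 4 fell. Of 3 melanocyte markers tested 2 fell, and of 2 fibroblast markers 1, Dcn, rose by 5.66 ± 0.38. The part of these cell types and of immune cells in the members' difference was not tested.

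Within oral epithelium, tongue and palate basal cells differed in 5 of 28 members: 1 rose and 4 fell in tongue, against 4.91% and 4.71% of 14923 genes, with a member median of -0.31 and an all-gene median of -0.03. Of the falls, those of Ifit2 and Gbp7 had their direction fixed by the low-count filter, which leaves Samd9l and Ddx58. Ifit2 stood at 3.97 and 4.92 CPM in palate LRC and 6.94 and 10.0 in palate nLRC, and at 0.361, 0.165, 0.754 and 0.216 in the tongue libraries. It fell by 4.07 ± 0.44 (adjusted p = 0.000584), on 19 tongue and 324 palate reads, and all palate libraries were above all tongue libraries. Ifit2 passed the low-count filter only through palate, so the test could give only a fall, and its change is a description. Its relative Ifit1 had 19 tongue and 48 palate reads and did not pass the test (log2 fold change -1.65 ± 0.81, adjusted p = 0.249), and Ifit3, with at most 3 reads in any oral library, was not tested. Samd9l stood at 18.5, 26.6, 25.7 and 37.2 CPM in palate and 7.59, 9.84, 11.1 and 15.9 in tongue, and fell by 1.29 ± 0.21 (adjusted p = 0.00544).
Ddx58, at 15.3 to 20.5 CPM in palate and 5.06 to 10.5 in tongue, fell by 1.24 ± 0.19 (adjusted p = 0.00399). Usp18 went the other way, at 3.66, 3.15, 3.14 and 1.54 CPM in palate and 7.23, 6.04, 8.29 and 10.7 in tongue, and rose by 1.46 ± 0.27 (adjusted p = 0.00905). These ranges did not overlap. Gbp7 stood at 1.77, 2.31, 1.60 and 2.70 CPM in palate and at 0.0723 and 0.0827 in tongue LRC and 0.586 and 1.73 in tongue nLRC, so that 1 tongue library lay inside the palate range. Gbp7 passed the low-count filter only through palate, at 21 to 30 reads per library against 1, 1, 7 and 24 in tongue. Like Ifit2, Gbp7 could thus give only a fall. It fell by 2.71 ± 0.58 (adjusted p = 0.0189), and leaving out palate LRC 2, tongue LRC 1, tongue LRC 2 or tongue nLRC 1 ended the call, with adjusted p up to 0.0897. Among the 36 other interferon-induced genes tested, none rose and 4 fell (edgeR), among them Ifitm3 by 1.07 ± 0.19 and Ifitm2 by 0.88 ± 0.18, which bar virus entry at membranes.

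In back skin, without the replicate block, between 1 and 7 of 39 members passed each test against basal cells, and all of these but 1 were lower outside the basal layer. Counting both directions, no such test called a larger share of the members than of all genes. Counts with the block were larger and are given below. Bulge against basal cells gave the most calls: 1 rose and 6 fell, against 15.7% and 10.6% of 16574 genes, with a median of -0.63 and an all-gene median of 0.06. Without the low-count filter 11 members passed, a count to which these shares do not apply. Oasl1 had too few reads to be tested in back skin. Usp18 stood at 29.2, 25.7 and 27.1 CPM in basal LRC, 23.3, 28.1 and 27.7 in basal nLRC and 9.79, 8.59 and 9.67 in bulge. All basal libraries were above all bulge libraries, and it fell by 1.51 ± 0.18 (adjusted p = 1.12e-05).
The ADP-ribosylation genes fell together. Parp9 stood at 31.9, 38.3 and 50.4 CPM in basal LRC, 30.7, 36.0 and 49.2 in basal nLRC and 15.3, 16.4 and 19.3 in bulge, and fell by 1.21 ± 0.28 (adjusted p = 0.00348). Dtx3l, at 41.3 to 78.6 CPM in basal and 19.1 to 30.3 in bulge libraries, fell by 1.14 ± 0.30, and Parp14, at 51.3 to 100.3 and 17.6 to 35, fell by 1.22 ± 0.33. Ifih1, at 25.6 to 37.8 in basal and 15.5 to 21.3 in bulge libraries, fell by 0.86 ± 0.20 (adjusted p = 0.00434). Herc6 fell by 2.10 ± 0.62 (adjusted p = 0.0192), with 5.27, 0.00 and 4.57 CPM in bulge against 9.28 to 23.7 in basal libraries. No range overlapped in these 6 genes.

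Ifit3 was the member that rose in back bulge, on 35, 3 and 13 reads against 0, 3 and 6 in basal LRC and 0 in each basal nLRC library, with an adjusted p of 0.0199. No basal library held more than 6 reads, so Ifit3 passed the low-count filter only through bulge and spinous nLRC libraries. The test here could thus give only a rise. Ifit3 also lost its call without back bulge 1. Reads of the near-identical Ifit3b may be shared with it, and no source used here states how such reads were counted. The bulge sort also held other cells: all 5 endothelial markers rose, their sum being 0.4 to 1.6 TPM in basal libraries and 13.4 to 386.1 in bulge, and 4 of 5 fibroblast, 5 of 5 melanocyte and 8 of 12 sebaceous markers tested rose. Their part in these results was not tested. Il10rb rose by 1.97 ± 0.37, Ifngr1, the type II receptor chain, fell by 2.38 ± 0.46 and Jak1 fell by 0.95 ± 0.22, and of 50 other interferon-induced genes 6 rose and 7 fell, among them the class I regulator Nlrc5, which fell by 1.42 ± 0.21. Of 14 sensing genes 2 rose and 4 fell, including Mb21d1 (cGAS), which fell by 1.72 ± 0.26.

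Granular against basal cells gave no rise and 3 falls among 39 members, against 11.2% and 8.85% of all genes, with a median of -0.61. With the library number as a replicate block, Mx1 rose, and Ifit2, Parp14, Xaf1, Usp18, Zbp1, Irgm1, Irf1, Cmpk2, Gbp7, Dtx3l and Oasl2 fell, 11 in all, where 10.9% of all genes fell. Ifit2 had 0 reads in all 3 granular libraries and 50 in the 6 basal libraries, so it was at least 2.59-fold lower. The low-count filter kept Ifit2 through other back skin groups alone, so its test here could give only a fall. Parp14 stood at 28.8, 23.3 and 39.4 CPM in granular and 51.3 to 100.3 in basal libraries and fell by 1.16 ± 0.33 (adjusted p = 0.0197). Xaf1, a pro-apoptotic interferon target, stood at 4.42, 3.21 and 9.17 against 11.2 to 27.7 CPM and fell by 1.61 ± 0.51 (adjusted p = 0.0343). None of these ranges overlapped. All 3 calls were lost without granular 1. Parp14 and Xaf1 were also lost without granular 2, and Xaf1 without basal LRC 3 or basal nLRC 3. Of 50 other interferon-induced genes 1 rose and 9 fell, such as Lgals9 by 2.52 ± 0.32 and Pml by 1.33 ± 0.18. In the same comparison 9 of 12 sebaceous markers rose, and 9 of 16 immune markers rose, Ptprc by 2.95 ± 0.69, with sums of 192 to 805.1 TPM in granular and 47.6 to 222.9 in basal libraries. Their part in the members' values was not tested.

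Spinous against basal cells gave 1 fall among 39 members, Usp18, where 4.9% of all genes rose and 4.18% fell, and the member median was -0.40. Usp18 fell by 0.45 ± 0.14 (adjusted p = 0.0479), and its call held in 7 of 18 fits with a library left out (basal nLRC 1, spinous nLRC 3, granular 2 or 3, or any bulge library), with adjusted p up to 0.140 in the others. The spinous side was itself split, since spinous LRC stood at 24.7, 22.2 and 27.1 CPM, inside or near the basal range, and spinous nLRC at 13.4, 14.7 and 18.9, below it. With the replicate block 4 members fell (Usp18, Parp14, Xaf1 and Irf1), where 6.03% of all genes fell. Of 50 other interferon-induced genes none rose and 7 fell (edgeR), among them Shisa5 by 0.92 ± 0.14 and Pml by 0.87 ± 0.14. In the same comparison 9 of 12 sebaceous and 3 of 7 suprabasal markers rose, and 1 of 8 keratinocyte markers rose and 4 fell. Their part was not tested.

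Among spinous cells the label classes differed in 3 members. Usp18, at the levels just given, rose in LRC by 0.65 ± 0.19 (adjusted p = 0.0292). Ddx58 stood at 17.4, 10.9 and 14.1 CPM in LRC and 20.2, 36.0 and 33.8 in nLRC and fell by 1.09 ± 0.30 (adjusted p = 0.0220). Bst2, which tethers budding virus, stood at 1.70, 1.23 and 1.84 against 3.15, 8.11 and 3.90 CPM and fell by 1.67 ± 0.48 (adjusted p = 0.0265). The ranges of all 3 were separate. Of all genes 6.88% rose and 8.63% fell, and the median of 39 members was -1.06 against -0.01.
With the replicate block 1 member rose and 10 fell, the added ones being Irf1, Rtp4, Irf7, Gbp7, Parp14, Irgm1, Xaf1 and Oasl2, where 10.7% of all genes fell. The 3 calls depended on single libraries: none was left without spinous nLRC 2 or without spinous LRC 3. Usp18 was also lost without basal LRC 1, spinous LRC 1 or spinous nLRC 1, Ddx58 without spinous LRC 2 or spinous nLRC 3, and Bst2 without spinous LRC 1 or 2. Ifnar2 fell by 3.24 ± 0.55 and Il10rb by 2.08 ± 0.47, and of 50 other interferon-induced genes none rose and 10 fell (edgeR), such as Ifitm3 by 2.33 ± 0.42. Sebaceous cell markers moved with this comparison: 10 of 12 fell in LRC, with summed CPM of 901.8, 907.1 and 955 in spinous LRC and 4645, 8662 and 4400.0 in spinous nLRC. Of 7 suprabasal markers 3 rose in LRC and none fell: Krt10 by 2.39 ± 0.57, Krt1 by 2.39 ± 0.60 and Dsg1a by 1.86 ± 0.28. The label classes thus also differed in markers of differentiation. The part of either marker set in the members' values was not tested.

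**Figure D4:**
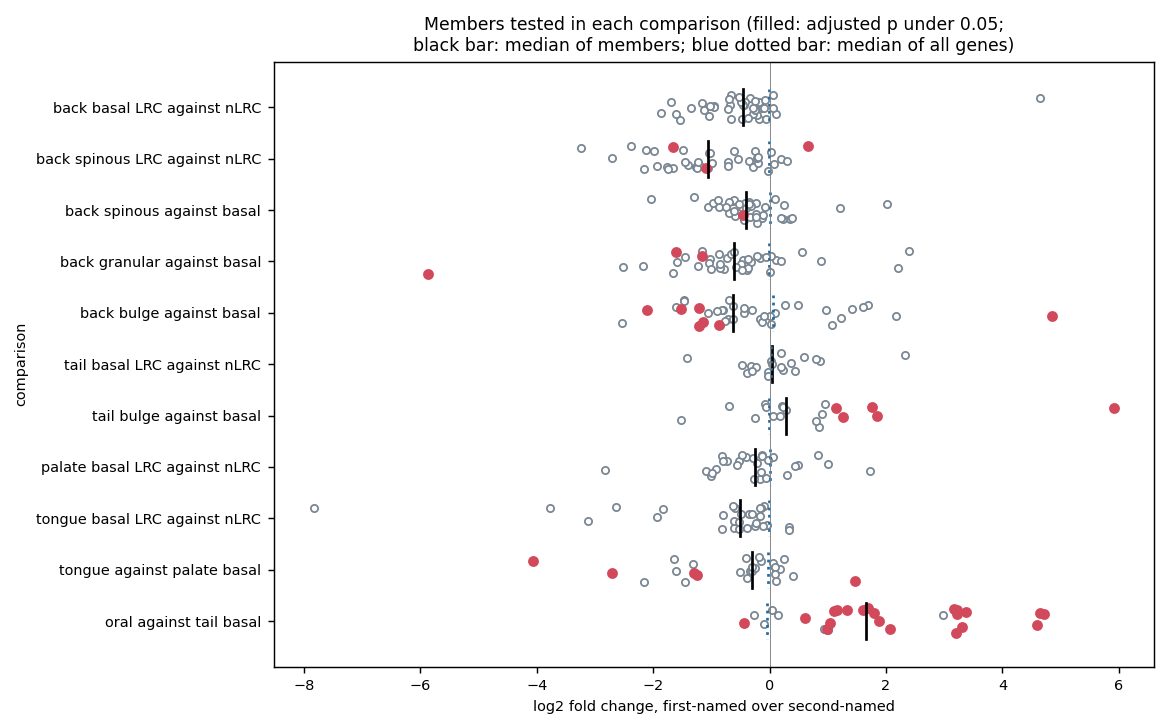
Log2 fold change of each member tested (points) in 11 comparisons, filled where the adjusted p was under 0.05, with the member median (black bar) and the median of all genes (dotted bar). Oral against tail basal cells has 21 filled points, 20 of them above 0, and the back skin medians lie below 0.

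Basal LRC and nLRC of back skin gave 0 calls among 39 members with edgeR and 0 with DESeq2, with 2 members at an unadjusted p under 0.05 and 0.235% of all genes past the test. The median of the members was -0.46 and 35 of 39 were negative, but it ran from -0.91 without LRC 3 to 0.07 without nLRC 3, fits in which the library numbers are no longer balanced. How many of all genes were negative was not computed. With the replicate block the median was -0.36, with 0 calls and 5 members at an unadjusted p under 0.05. The smallest p belonged to Oas1a, which makes the second messenger that activates RNase L, at 0.423, 1.87 and 4.94 CPM in LRC and 7.13, 5.70 and 13.5 in nLRC (log2 fold change -1.87 ± 0.78, adjusted p = 0.830). Trim25 stood at 51.2, 50.2 and 56.1 against 59.9, 61.2 and 81.8 CPM, and Ifit3 had 9 and 0 reads. The test of whether the LRC difference itself differed between spinous and basal layer gave 0 calls with edgeR and with DESeq2, 4 members at an unadjusted p under 0.05, and 0.392% of all genes.

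Outside the bulge, back skin libraries with the same number departed from their group means together, and the members showed a pattern by number. The library numbered 3 was the highest of its group in all 6 back skin groups for 12 of 39 members, namely Oasl2, Mx2, Mx1, Oas1a, Oas3, Parp9, Xaf1, Parp14, Gbp7, Gbp2, Trim25 and Irgm1, against 3.16% of 16574 genes. In at least 5 of the 6 groups it was the highest for 25 members, against 9.53% of genes. No member had library 1 or library 2 highest in 5 or more groups. This pattern was looked for after the values were seen, and what the number stands for is not given in the labels.
Oasl2, an RNA-binding relative of the Oas enzymes, stood at 3.99, 8.60 and 21.0 CPM in libraries 1, 2 and 3 of basal LRC, 4.63, 13.4 and 36.1 of basal nLRC, 3.46, 4.01 and 9.32 of spinous LRC and 3.26, 12.6 and 30.4 of spinous nLRC. Gbp2 stood at 18.4, 14.4 and 66.4 CPM in basal LRC, 22.4, 27.5 and 83.8 in basal nLRC and 11.1, 11.5 and 54.4 in granular cells. The summed CPM of the 39 members was 556.6, 583 and 932.7 in basal LRC and 564, 745.4 and 1185 in basal nLRC. Usp18 varied less with the number: its basal libraries span 23.3 to 29.2 CPM, although library 3 was the highest in 3 of the 6 groups. The summed immune markers were highest in library 3 in basal LRC (44.8 CPM, against 24.4 and 41.4) and in library 2 in the other 5 groups, as in granular cells (279.3, against 73.2 and 86.0). They were lowest in library 1 in 5 of the 6 groups, as was the sum of the members. The part of immune cells in the pattern was not tested.

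**Figure D5:**
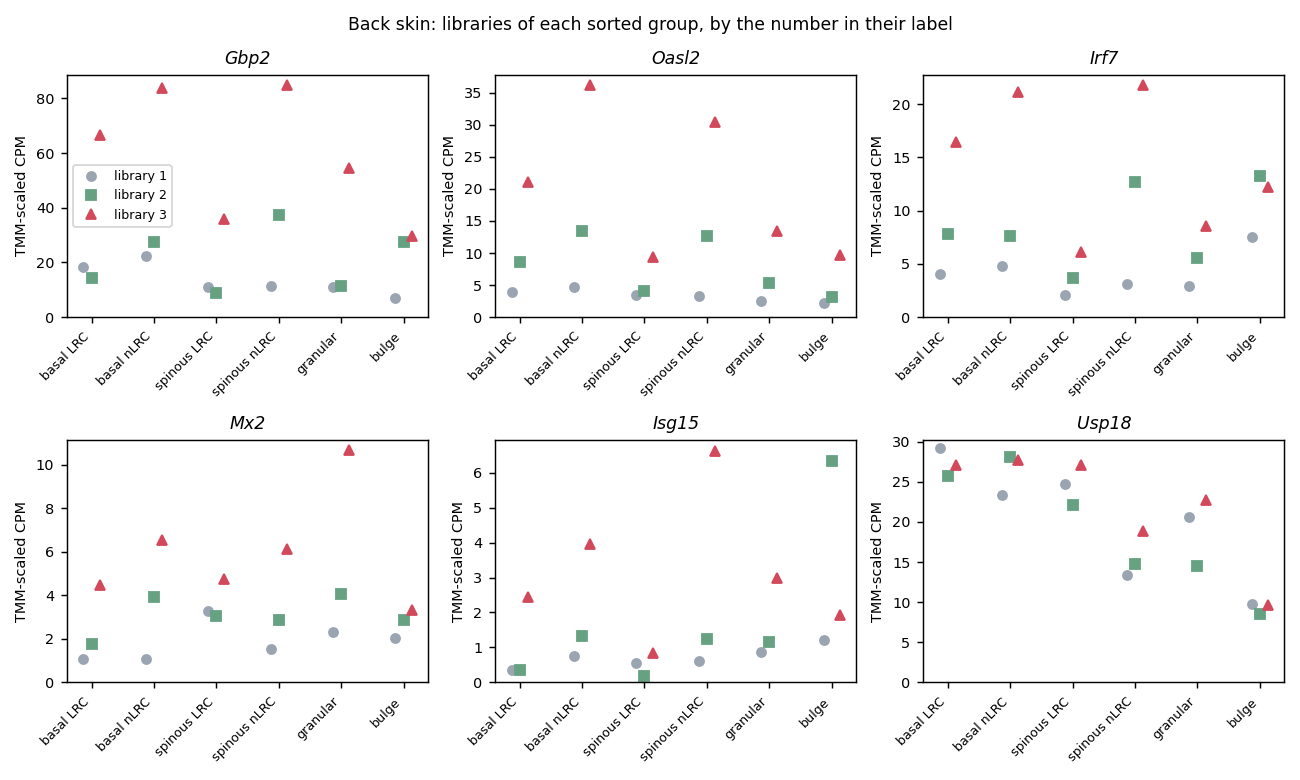
TMM-scaled CPM of 6 members in the 6 back skin groups, with the library number shown by symbol and colour. Library 3 is the highest in all 6 groups for Gbp2, Oasl2 and Mx2 and in 5 for Irf7 and Isg15. For Usp18 it is the highest in 3, and the spread is more by group.

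In tail skin the bulge had higher levels of some members. Of 19 members tested, 5 rose and none fell in tail bulge over basal cells (edgeR, with 5 and 0 also in DESeq2). Over all 14993 genes 14.2% rose and 10.4% fell, and the member median was 0.28. Gbp7 and Usp18 are among the 5, and the low-count filter fixed their direction, so the fall of Usp18 in back bulge is no contrast to its rise here. Without these genes the share of members that rose was close to that of all genes. The 21 members with too few reads to be tested in tail skin included Isg15, Rsad2, Gbp2, Igtp, all 3 Ifit genes and all 5 Oas and Oasl genes. Gbp7 stood at 2.96, 5.43 and 7.49 CPM in bulge and at 0.122, 0.212 and 0.227 in basal LRC and 0.00, 0.00 and 0.0793 in basal nLRC, and rose by 5.92 ± 0.57 (adjusted p = 4.35e-05) on 147 and 9 reads. Gbp7, at 0 to 3 reads in each basal library, and Usp18, at 4 to 8, passed the low-count filter only through the bulge, so for them the test could give only a rise. Irf7 stood at 5.76, 3.93 and 3.36 against 0.777 to 1.65 CPM and rose by 1.75 ± 0.34 (adjusted p = 0.00431). Usp18 stood at 1.70, 1.498 and 2.14 against 0.303 to 0.695 CPM and rose by 1.85 ± 0.39 (adjusted p = 0.00660).
Trim25 stood at 29.8, 28.8 and 27.5 against 9.59 to 17.7 CPM and rose by 1.14 ± 0.18 (adjusted p = 0.00114). Ifi35, a binding partner of Nmi, stood at 9.16, 10.5 and 10.4 against 2.54 to 5.23 and rose by 1.27 ± 0.21 (adjusted p = 0.00168). All bulge libraries were above all basal libraries in these 5 genes. With the replicate block Irf1 rose as well, by 0.91 (adjusted p = 0.00700), against 0.85 ± 0.42 and an adjusted p of 0.177 without it. Among receptors and kinases 5 of 9 rose and 1 fell, including Ifnar2 by 0.70 ± 0.15 and Ifnar1 by 0.39 ± 0.09, and of 32 other interferon-induced genes 12 rose and 3 fell, led by Helz2 at 3.89 ± 0.25. Tmem173 (STING), the adaptor for cytosolic DNA, rose by 4.12 ± 0.82. All 5 endothelial markers rose here too, from sums of 0.1 to 0.9 TPM in basal to 8.6 to 51.4 in bulge libraries, and their part was not tested. The bulge differences of back and tail skin come from separate table sets, and the difference between them was not tested.

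Tail basal LRC and nLRC gave 0 calls among 19 members with edgeR and with DESeq2, with 1 member at an unadjusted p under 0.05, where 4.6% of all genes passed, and a median of 0.05. In the same comparison 5 of 7 bulge markers rose in LRC. Gbp7 had 8 and 1 reads (ratio 7.37, 95% counting interval 0.988 to 327.1). Parp14 stood at 5.06, 12.7 and 6.29 against 3.21, 5.88 and 4.68 CPM, and Ifih1 at 2.86, 4.87 and 4.02 against 1.48, 2.43 and 2.54. In palate, LRC and nLRC gave 0 calls among 28 members with edgeR and with DESeq2, with 1 at an unadjusted p under 0.05, where 0% of all genes passed. The smallest p was that of Irgm1, at 3.23 and 4.61 CPM in LRC and 5.22 and 10.6 in nLRC (-0.99 ± 0.42, adjusted p = 0.640), followed by Irf1 at 7.14 and 13.9 against 13.8 and 21.1, and Gbp2 at 1.28 and 3.07 against 3.44 and 5.92.

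In tongue, LRC and nLRC gave 0 calls among 28 members with edgeR, 1 with DESeq2 (Oas1a) and 5 at an unadjusted p under 0.05, where 0.0067% of all genes passed. The values leaned to lower levels in LRC, with 26 of 28 negative and a median of -0.50. The share of negative values over all genes was not computed. Oas1a, Gbp7, Gbp3 and Rtp4 had 0 to 2 reads in each tongue LRC library. They passed the low-count filter only through other libraries and could hardly come out positive, so the lean is a description. Gbp7 stood at 0.0723 and 0.0827 CPM in LRC and 0.586 and 1.73 in nLRC, on 2 and 31 reads, a ratio of 16.4 (95% counting interval 4.17 to 141.4, adjusted p = 0.401). Oas1a had 0 and 0 reads in LRC and 6 and 52 in nLRC, at least 10.2-fold lower (adjusted p = 0.605). Gbp3 had 1 and 2 against 10 and 10 reads, a ratio of 7.05 (2.09 to 37.1, adjusted p = 0.9504). The tongue nLRC library 2 held the most member TPM of the oral tissues, 121.7, and gave most of the Oas1a reads. The tongue LRC difference against that of palate gave 0 calls with edgeR and with DESeq2, 1 member at an unadjusted p under 0.05, and 0% of all genes.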

How the data were processed

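Sorted cells were digested out with trypsin and stored in Trizol, and total RNA was turned into libraries with a SMARTer Stranded Pico v2 kit, per the labels' protocols. The submitters' processing notes name the build mm10. No source used here names the aligner, the counter, the annotation or the use of strand. Of the 40 members, 17 overlap another gene in the GRCm38 annotation, 12 of them one on the opposite strand. The authors deposited, per library, a count of total gene reads and TPM per gene, per the file headers. The authors also deposited RPKM values, per the file headers, used only to check what the counts hold. Some counts of 3 or more stand beside a TPM of 0.00, so the deposited counts hold reads that TPM does not. Back skin tables list other names than the rest, 47436 being shared.

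Members were read out of fits over all genes: edgeR 4.0.16 (R 4.3.3) quasi-likelihood tests on the deposited counts, TMM scaling, filterByExpr (minimum count 10, total 15), Benjamini-Hochberg adjusted p under 0.05, with no term beyond the groups. Dividing the log2 fold change by the root of its F statistic gave the SE. Fits held the 18 back, 9 tail, 8 oral or 14 tail and oral basal libraries. The TMM factors farthest from 1 were those of back bulge 2 (0.50) and palate nLRC 2 (0.67), which raise the CPM of these libraries. For a fold against 0 reads, 3 reads in each library stood in as the floor, and ratios with 1 to 3 reads carry a 95% interval, both covering counting error only. Tests were tried on simulated data. The 40 members, the pathway and marker lists and the tests were chosen with earlier results of these data known. One interferon-related gene is not reported here and was left out of the pathway lists. Members were named by rule: per comparison up to 8 per direction by p, or the 3 of smallest p where none passed, the 5 highest by median TPM, Stat2, Irf1, Irf7 and Irf9, and members at 0 reads in a whole group.

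In libraries that share a number, departures from the group mean had correlations of 0.294 to 0.629 in back skin without bulge (18 pairs) and 0.292 to 0.657 in tail (9 pairs), each above 0.1. The numbers thus pair these libraries, the tests above are unpaired, and a fit with the number as a block is given beside a result where it changes a call. The meaning of the numbers is not given in the labels. Alternatives were DESeq2 1.42.0, limma 3.58.1 on log2(TPM + 1), median-of-ratios scaling in edgeR, the replicate block, leaving the filter out, and leaving each library out in turn.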

Additional observations from a re-analysis of the deposited data

How the results depend on the processing

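For members past the test in a comparison, or the 3 of smallest p where none passed, no value reversed under an alternative: 845 recomputed values stayed on the same side of the threshold, 53 fell below it and 4 passed it. Members that passed only under an alternative are in the counts below instead. Counts of members past the test moved by over 1.5 times as follows. They compare settings and not members with other genes, since all-gene shares under an alternative are given above only for the replicate block. For spinous LRC against nLRC of back skin the main count of 3 became 11 with the replicate block, 5 with DESeq2 and 0 with limma on TPM, and 0 to 5 with a library left out. For spinous against basal, 1 became 4 with the block, 2 with DESeq2, 0 with limma on TPM, and 0 to 2 with a library left out. For granular against basal, 3 became 12 with the block, 6 without the low-count filter, 6 with DESeq2, 1 with limma on TPM, and 0 to 6 with a library left out. For back bulge against basal, 7 became 11 without the filter and 15 with the block, although the bulge libraries share only a number with the others (r from -0.0635 to 0.364). Tail bulge against basal gave 3 in place of 5 with limma on TPM. Tongue LRC against nLRC gave 2 without the filter and 1 with DESeq2 in place of 0, palate LRC against nLRC 0 to 1 with a library left out, and tongue against palate 2 in place of 5 with limma on TPM. The TPM fits tested fewer members; other causes were not tested. Palate and tongue numbers (r of 0.296 and -0.0479) were not taken to pair libraries, and the block gave 0 calls in both. The block was not run for tongue against palate and oral against tail, since numbers do not pair tissues. Low reads limit Isg15, Rsad2, Oasl1 and the other members at 0 reads.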
